A study of Mus musculus with 6 samples.

Results

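The miR-26 and miR-101 families, here mmu-miR-26a-5p, mmu-miR-26b-5p, mmu-miR-101a-3p and mmu-miR-101b-3p, were examined in mouse kidney. These 4 members were taken by their names, out of 495 mature miRNAs measured, and all 4 were found and passed the filter on low counts. Small RNA of kidney tissue from male balb/c mice was sequenced in 3 CIH samples and 3 Control samples. CIH (chronic intermittent hypoxia) is a model of sleep apnea. In it, inspired oxygen was brought down to 6% and back up to 21% in cycles of 2 minutes, 30 times an hour, 8 hours a day for 8 weeks. Control mice sat in the same kind of chamber with room air over the same weeks. No allele was altered in either group, and whole kidney tissue mixes many cell types. Whether every library stands for a separate mouse is not stated, so p-values here reflect only library-to-library spread, which may be technical.

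A miRNA is a short RNA that guides Argonaute proteins to mRNAs, mainly through bases 2 to 8 of its 5′ end, the seed. Both families are best known as repressors of Ezh2, the enzyme of Polycomb repressive complex 2 (PRC2) that methylates a lysine of histone H3 and silences genes. Loss of miR-101 with gain of EZH2 was described in human prostate cancer, and miR-26a was tied to Ezh2 in myogenic differentiation of mouse cells. The miR-26 genes sit in genes of the CTD small phosphatases and are expressed with them in many tissues. The comparison asks whether the kidney level of these repressors differed after CIH. Neither Ezh2 mRNA nor its protein was measured here.

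The mature sequences, from RefSeq on GRCm38.p6, are shown because the families are defined by their seeds. Capitals mark bases 2 to 8.
mmu-miR-26a-5p: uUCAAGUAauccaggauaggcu
mmu-miR-26b-5p: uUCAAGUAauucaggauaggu
mmu-miR-101a-3p: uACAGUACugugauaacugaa
mmu-miR-101b-3p: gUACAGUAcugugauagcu
mmu-miR-101c: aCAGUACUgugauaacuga
The miR-26 pair shared 1 seed. Over the 21 bases compared they differed by C11U and C21U, counted from 1 at the 5′ end of mmu-miR-26a-5p. The miR-101 members did not share a seed as annotated, since mmu-miR-101b-3p starts 1 base earlier and mmu-miR-101c 1 base later than mmu-miR-101a-3p. Over the 18 bases that mmu-miR-101a-3p and mmu-miR-101b-3p have in common they differed by A16G alone, counted from the 5′ end of mmu-miR-101a-3p. All 19 bases of mmu-miR-101c lie within mmu-miR-101a-3p, so a read of it cannot be told by sequence from a shortened mmu-miR-101a-3p. The rule by which the authors' counting shared such reads is not known here.

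The 2 miR-101 hairpins are shown side by side, lined up at the same base, because they place the start of each mature RNA. Capitals mark the annotated mature RNA.
Mir101a: aaaggUACAGUACUGUGAUAACUGAAgg
Mir101b: aaagGUACAGUACUGUGAUAGCUgaaga
The G that opens mmu-miR-101b-3p also precedes mmu-miR-101a-3p in its hairpin, so the difference in seed is a difference in where the annotated RNA begins.

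The 5 precursor genes lie apart from one another on GRCm38, and their RefSeq positions equal those of GENCODE release M21. Mir26a-1 lies at chr9:119031796-119031885 in an intron of Ctdspl, and Mir26b at chr1:74394310-74394394 in an intron of Ctdsp1. Mir26a-2, at chr10:126995530-126995613, lies within Ctdsp2 and has 1 of its 84 bases in an annotated exon. All 3 are on the plus strand, as are their host genes. Mir101b lies at chr19:29135279-29135375 in an intron of Rcl1 on the same strand. Mir101a lies at chr4:101346945-101347027 on the minus strand, with all 83 bases inside an exon of the noncoding E130102H24Rik. mmu-miR-26a-5p has the same sequence at Mir26a-1 and Mir26a-2, and its 2 entries in the table had nearly the same counts in each library (286033 and 286012 in CIH replicate 1). Since the sequence is the same at both genes, neither count can say which gene a read came from. The entry with the higher total was kept.

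Seed matches in the 3′ UTR of Ezh2 are shown because a miRNA is guided to an mRNA mainly through its seed. The motifs searched on the mRNA strand were TACTTGA for the miR-26 pair, GTACTGT for mmu-miR-101a-3p and TACTGTA for mmu-miR-101b-3p, and the last 2 overlap over 6 bases. In the longest annotated 3′ UTR of Ezh2, the 402 nt of Ezh2-201, there was 1 match for miR-26 and there were 2 for mmu-miR-101a-3p. Capitals mark the match, and the names give its first base in the 3′ UTR.
Ezh2, miR-26, base 248: atttgaataaagaaTACTTGAacttgtt
Ezh2, miR-101a, base 59: ttcaggaaccttgaGTACTGTgggcaat
Ezh2, miR-101a, base 114: tctgaatttgcaaaGTACTGTaacagta
These lie on the minus strand at chr6:47530287-47530293, chr6:47530476-47530482 and chr6:47530421-47530427. The match at base 114 is followed by an A and so also holds TACTGTA, the motif of mmu-miR-101b-3p. Among the 942 genes whose 3′ UTR is within 10% of that length, 3.08% held the miR-26 motif, 2.65% the mmu-miR-101a-3p motif and 2.34% the mmu-miR-101b-3p motif. Ezh2 was the only 1 of these 942 with all 3, while 223 (1.06%) of the 21020 genes of any length had all 3. Of 10 PRC2 genes searched, 6 had at least 1 match. The share of all genes with at least 1 of the 3 motifs was not counted, so this number is not read as high or low. Ezh1, Rbbp4, Mtf2 and Phf19 had none, though the miR-26 motif was in 12.5%, 20.0%, 13.5% and 13.2% of genes with 3′ UTRs of like length. Suz12 and Jarid2, a core subunit and an accessory subunit, had 1 miR-26 match each and 0 for mmu-miR-101a-3p. Eed and Rbbp7, both core subunits, had 1 mmu-miR-101a-3p match each and 0 for miR-26, and the accessory subunit Aebp2 had 2 in a 3′ UTR of 4695 nt. Among genes with 3′ UTRs of like length the miR-26 motif was in 12.5% for Suz12 and 10.9% for Jarid2, and the mmu-miR-101a-3p motif in 2.97% for Eed, 4.26% for Rbbp7 and 28.8% for Aebp2. A match is a stretch of letters and was not tested for binding. Of the 3′ UTRs of 21020 genes, 9.67% held the miR-26 motif, 9.39% the mmu-miR-101a-3p motif and 12.2% the mmu-miR-101b-3p motif.

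All 4 members were abundant in kidney. Levels are given as CPM, the count relative to the total of its library, after scaling by TMM, a method that evens out differences in library makeup. mmu-miR-26a-5p averaged 37361 ± 1851 CPM in CIH and 38481 ± 1059 CPM in Control (SD, n = 3 each), and stood at position 8 of the 495 by mean level. mmu-miR-101a-3p followed at position 16, mmu-miR-26b-5p at 24 and mmu-miR-101b-3p at 42. A miRNA is covered by 1 read whatever its length, so levels need no correction for length. How well each sequence took the adapters was not measured. The order of the 4 was the same in every library: the lowest value of mmu-miR-101a-3p, 15638 CPM, was above the highest of mmu-miR-26b-5p, 8523 CPM, whose lowest, 6877 CPM, was above the highest of mmu-miR-101b-3p, 4162 CPM. Within the table the neighbours were not as clearly apart. mmu-miR-26a-5p lay below mmu-miR-143-3p of smooth muscle in every library but overlapped with mmu-miR-10b-5p, and each of the other 3 overlapped with both of its neighbours. Together the 4 took 6.93%, 6.80% and 6.84% of the counts of the CIH libraries, against 6.75%, 6.74% and 6.76% in Control. These shares did not overlap, but on the TMM scale the sums did, from 66010 to 69082 CPM in CIH and from 66477 to 72725 CPM in Control. Counting error was 0.186% to 0.832% of a value, below the coefficient of variation of each member in either group.

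**Figure D1:**
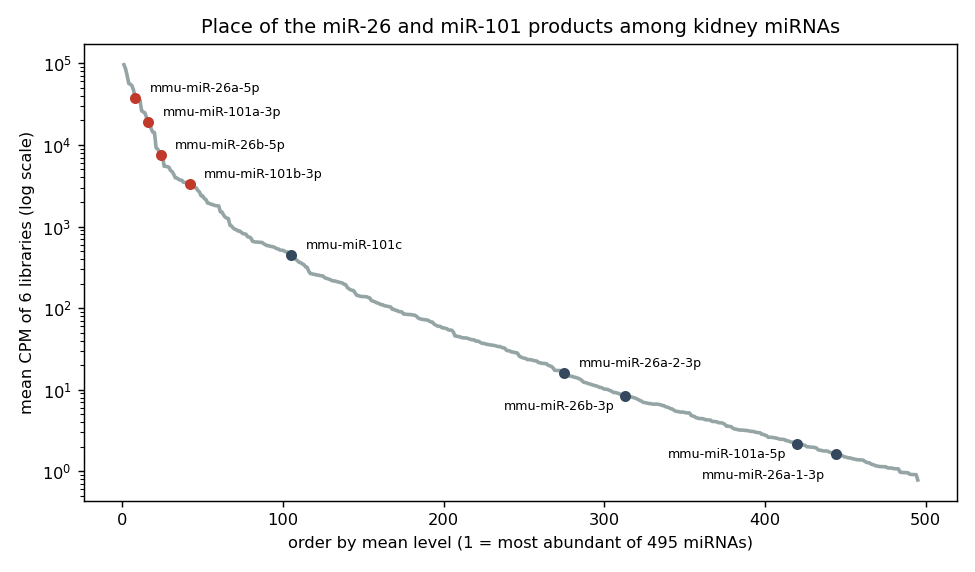
Mean level of each of the 495 miRNAs over the 6 libraries in CPM (grey line, log axis) against its position in the order of levels. Red points are the 4 members, at positions 8, 16, 24 and 42, and dark points are the other products of these families, the most abundant of which, mmu-miR-101c, is at position 105.

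Grouped by seed, the miR-26 pair gave 43544, 46987 and 44266 CPM in CIH, against 45088, 48218 and 44877 CPM in Control. The groups overlapped. This seed, UCAAGUA, stood at position 8 of 332 seeds among the 413 miRNAs with a RefSeq sequence, and held no other miRNA. The seed of mmu-miR-101a-3p stood at position 12, that of mmu-miR-101b-3p at 28 and that of mmu-miR-101c at 62. The 6 bases ACAGUA that run through the first 9 bases of the miR-101 members were found there in 6 of the 413, the others being mmu-miR-144-3p, mmu-miR-199a-3p and mmu-miR-199b-3p.

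None of the 4 members differed between CIH and Control kidneys beyond the spread between samples. Of the 4, 0 passed an adjusted p of 0.05 (edgeR's quasi-likelihood test) and 0 an unadjusted p of 0.05. Over all 495 miRNAs, 0 (0%) passed the adjusted and 39 (7.88%) the unadjusted threshold, and the unadjusted count was 29 with DESeq2 and 33 with limma. The groups overlapped in all 4 members, while CIH and Control libraries did not overlap for 12.5% of all miRNAs. With 3 samples a group, a p above the threshold does not show that the levels were equal, so the 95% interval of each difference is given. Without TMM scaling the 4 log2 fold changes were above 0, at 0.017 to 0.056, and with it they were below 0, so no direction is read from them.

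mmu-miR-26a-5p, the main miR-26 of kidney, had 35896, 39442 and 36746 CPM in CIH, against 37749, 39695 and 38000 CPM in Control. The lowest 2 values were in CIH, and CIH replicate 2 lay among the Control libraries. The log2 fold change (CIH over Control) was -0.04 (standard error 0.09, edgeR adjusted p = 0.94). The interval ran from a CIH to Control ratio of 0.843 to 1.12.

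mmu-miR-26b-5p, its partner with the same seed, had 7648, 7546 and 7520 CPM in CIH, against 7339, 8523 and 6877 CPM in Control. All CIH values fell between the lowest and the highest Control value. The log2 fold change was -0.0017 (standard error 0.11, edgeR adjusted p = 0.998), with an interval from a ratio of 0.848 to 1.18. With the 3 other scalings this value was above 0.

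mmu-miR-101a-3p, the main miR-101 of kidney, had 19529, 18699 and 18501 CPM in CIH, against 19502, 15638 and 23686 CPM in Control. Control replicate 2 was the lowest and Control replicate 3 the highest of the 6 libraries. The log2 fold change was -0.05 (standard error 0.14, edgeR adjusted p = 0.95), with an interval from a ratio of 0.777 to 1.20. It was -0.19 without Control replicate 2 (adjusted p = 0.45) and 0.10 without Control replicate 3 (adjusted p = 0.91), so its sign rested on 1 library.

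mmu-miR-101b-3p, from another chromosome, had 3199, 3395 and 3243 CPM in CIH, against 3353, 2621 and 4162 CPM in Control. Control replicates 2 and 3 again held the extremes. The log2 fold change was -0.04 (standard error 0.15, edgeR adjusted p = 0.95), with an interval from a ratio of 0.767 to 1.23. It was -0.20 without Control replicate 2 and 0.13 without Control replicate 3 (adjusted p = 0.47 and 0.87).

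**Figure D2:**
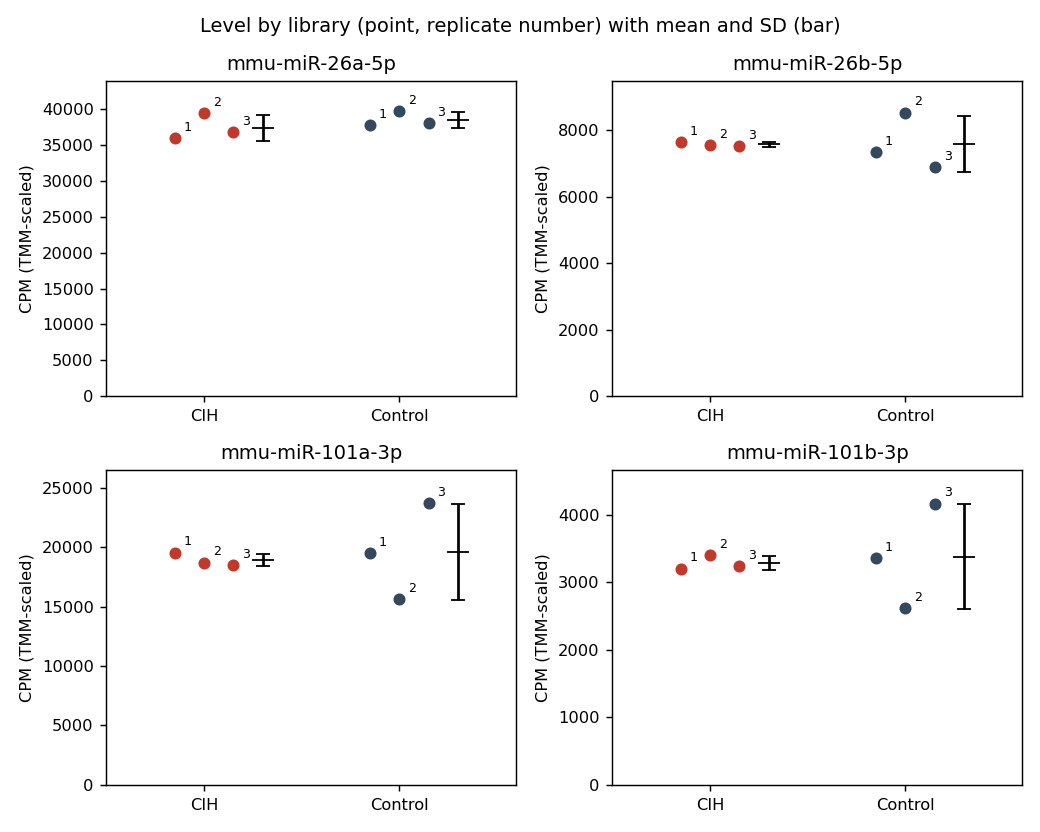
Level of each member in CPM, each axis from 0, with CIH left of Control. Points are libraries with their replicate number, and the bars at the side give the mean and SD of 3 libraries. For mmu-miR-26b-5p, mmu-miR-101a-3p and mmu-miR-101b-3p the 3 CIH points lie between the lowest and the highest Control point.

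The spread within the groups differed more than their means, which is given as a description and was not tested. mmu-miR-101a-3p had a coefficient of variation of 2.88% in CIH and 20.5% in Control, and mmu-miR-101b-3p of 3.14% in CIH and 22.8% in Control. For mmu-miR-26b-5p it was 0.894% in CIH and 11.2% in Control. mmu-miR-26a-5p went the other way, with 4.96% in CIH and 2.75% in Control. The wider Control spread was shared by most abundant miRNAs: among the 68 with a mean of at least 1000 CPM the median was 6.43% in CIH and 11.4% in Control, and 52 of the 68 were more variable in Control. The CIH range lay inside the Control range for 3 of the 4 members, 32 of these 68 and 136 of all 495. None of the 68 had a smaller CIH coefficient of variation than mmu-miR-26b-5p, while 15 had a larger Control one than mmu-miR-101a-3p.

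The members did not depart from their means together. In Control replicate 2, on the log2(CPM + 0.5) scale, mmu-miR-101a-3p and mmu-miR-101b-3p lay at -0.29 and -0.33 from their 6-library means, and mmu-miR-26b-5p at 0.17. In Control replicate 3 they lay at 0.31 and 0.34, and mmu-miR-26b-5p at -0.14. mmu-miR-26a-5p lay between -0.08 and 0.07 in every library. Thus mmu-miR-101a-3p was 1.51 times as high in Control replicate 3 as in Control replicate 2, mmu-miR-101b-3p 1.59 times, mmu-miR-26b-5p 0.807 times and mmu-miR-26a-5p 0.957 times. Ratios of raw counts, which no scaling touches, show the same. The count of mmu-miR-101a-3p per mmu-miR-101b-3p was 6.10, 5.51 and 5.71 in CIH, against 5.82, 5.97 and 5.69 in Control, so the counts of the miR-101 pair kept nearly 1 proportion. The pair differs by 1 base where the sequences overlap, and how the authors' counting shared reads between them is not known. Their counts may thus not be separate measurements. The count of the miR-26 pair per miR-101 pair was 1.92, 2.13 and 2.04 in CIH, against 1.97, 2.64 and 1.61 in Control. mmu-miR-26a-5p per mmu-miR-26b-5p ran from 4.69 to 5.23 in CIH and from 4.66 to 5.53 in Control.

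**Figure D3:**
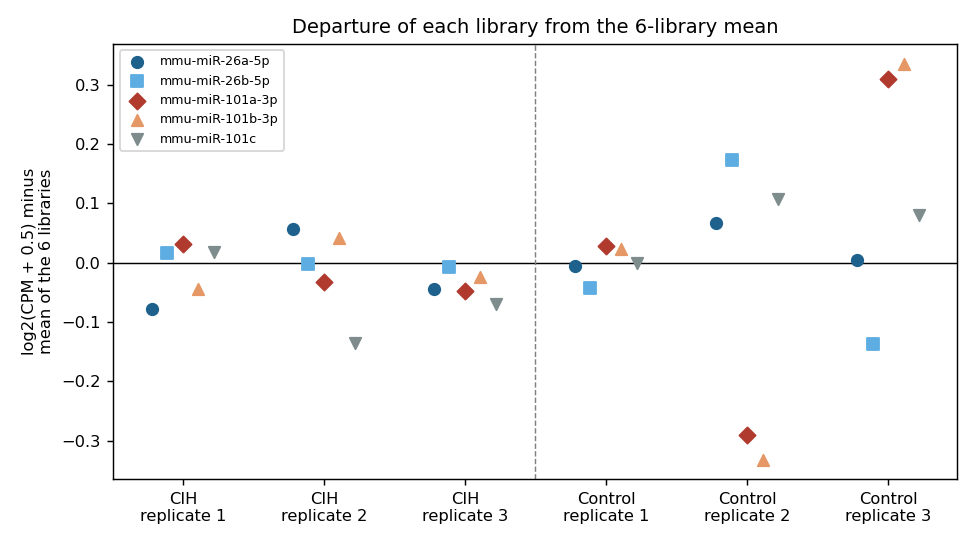
Departure of each library from the 6-library mean of the same miRNA, on the log2(CPM + 0.5) scale, for the 4 members and mmu-miR-101c. CIH libraries are left of the dashed line and Control libraries right of it. mmu-miR-101a-3p and mmu-miR-101b-3p are near -0.3 in Control replicate 2 and above 0.3 in Control replicate 3, where mmu-miR-26b-5p has the opposite signs.

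Control replicate 2 was the shallowest library, with 5431797 counts, where all libraries ran up to 7741499. CIH replicate 3 came next, with 5905653 counts. There mmu-miR-101a-3p and mmu-miR-101b-3p lay at -0.05 and -0.02 from their means on the log2 scale. Control replicate 3, with the highest miR-101 values, had 7253849 counts. The part of depth in the miR-101 values was not tested. The summed markers of some kidney cell types also differed between Control replicates 2 and 3, though single markers did not all go the same way. The 5 tubule markers, all measured, summed to 230470 to 263481 CPM in CIH and 243050 to 318896 CPM in Control, with Control replicate 2 the lowest and Control replicate 3 the highest of Control. That order was the order of mmu-miR-30a-5p and mmu-miR-192-5p and not of the other 3, of which mmu-miR-194-5p had 9086, 8526 and 8032 CPM in Control. The 2 endothelial markers summed to 52882 to 56041 CPM in CIH and 49948 to 59944 CPM in Control, nearly all of it mmu-miR-126a-3p, while mmu-miR-126a-5p was highest of Control in replicate 2 and lowest in replicate 3. The 3 smooth muscle and mesenchyme markers summed to 51111 to 56137 CPM in CIH and 51240 to 57303 CPM in Control. Of these mmu-miR-143-3p was lowest of Control in replicate 2 and highest in replicate 3, and mmu-miR-145a-5p and mmu-miR-199a-3p had the opposite order. Of the 10 markers in these 3 lists, 4 thus had the Control order of miR-101 and 3 its opposite. The 5 leukocyte markers summed to 977 to 1097 CPM in CIH and 930 to 1084 CPM in Control. No marker of these 4 lists was at 0. Their part in the miR-101 values was not tested, and in bulk tissue fewer cells of a type cannot be told apart from less RNA per cell. mmu-miR-192-5p, which marks kidney tubules, averaged 69467 ± 3597 CPM in CIH and 71752 ± 8436 CPM in Control (SD, n = 3 each) and stood at position 3, while mmu-miR-122-5p of liver reached at most 77.9 CPM. Of the 5 tubule markers 4 had a negative and 1 a positive log2 fold change, with a median of -0.18. Only mmu-miR-204-5p had groups that did not overlap, with CIH below Control (log2 fold change -0.32, edgeR adjusted p = 0.64), where 12.5% of all miRNAs did not overlap.

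The other products of these precursors were scarce. mmu-miR-26a-2-3p, the opposite strand of Mir26a-2, had 139, 116 and 124 counts in CIH, against 109, 67 and 115 in Control. The CIH counts were the highest 3, but in CPM the groups overlapped, and its log2 fold change was 0.30 (standard error 0.19, edgeR adjusted p = 0.79). mmu-miR-26a-1-3p, the opposite strand of Mir26a-1, had 10 to 12 counts in CIH and 10 to 15 in Control. mmu-miR-26b-3p had 51 to 71 counts in CIH and 52 to 60 in Control. mmu-miR-101a-5p had 16 counts in each CIH library, against 17, 9 and 16 in Control. There were 2121 counts of mmu-miR-26a-5p for each of mmu-miR-26a-2-3p on average in CIH and 2719 in Control, with a range of 1814 to 2491 in CIH and 2227 to 3264 in Control. Counting error alone was 8.48% to 12.2% for this strand and up to 33.3% for mmu-miR-101a-5p.

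mmu-miR-101c did not follow mmu-miR-101a-3p, whose sequence contains it. It had 454, 408 and 428 CPM in CIH, against 449, 483 and 474 CPM in Control, and its log2 fold change was -0.12 (standard error 0.10, edgeR adjusted p = 0.81). The groups overlapped only through CIH replicate 1 and Control replicate 1. Per 100 counts of mmu-miR-101a-3p there were 2.33, 2.18 and 2.31 of it in CIH, against 2.30, 3.09 and 2.00 in Control. Its share was thus highest in Control replicate 2, where mmu-miR-101a-3p was lowest.

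The miRNAs whose pattern over the 6 libraries was most like each member were ranked by the root-mean-square difference of mean-centred log2(CPM + 0.5), among the other 301 with a mean of at least 10 CPM. mmu-miR-101b-3p and mmu-miR-101a-3p were each second for the other, at 0.05. Before mmu-miR-101b-3p came mmu-miR-365-2-5p, at 0.03, with only 10.1 CPM, and before mmu-miR-101a-3p came mmu-miR-3068-3p, also at 0.05. The third places went to mmu-miR-16-1-3p for mmu-miR-101a-3p and to mmu-miR-148a-3p for mmu-miR-101b-3p. mmu-miR-26b-5p had mmu-miR-29c-3p first, at 0.03, then mmu-miR-423-5p and mmu-miR-30c-1-3p. mmu-miR-26a-5p had mmu-miR-125b-2-3p first, at 0.03, then mmu-miR-200a-3p and mmu-miR-214-5p. The miR-26 partners were less alike than the miR-101 pair, at 0.09, which placed mmu-miR-26b-5p at position 19 for mmu-miR-26a-5p. mmu-miR-101c was at position 102 for mmu-miR-101a-3p, at 0.19. These are descriptions over 6 libraries that share their normalization, and the counts of the miR-101 pair may not be separate measurements.

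The other miRNAs reported in cultured cells to repress Ezh2 gave no call either. Of 15 listed, 14 were measured, and 0 passed the adjusted and 0 the unadjusted threshold (edgeR's quasi-likelihood test, with 7.88% of all miRNAs past the unadjusted one). Their log2 fold changes were positive in 6 and negative in 8, with a median of -0.0066, against -0.0030 over all miRNAs. mmu-let-7f-5p, among the most abundant of the list, averaged 25917 ± 1336 CPM in CIH and 26415 ± 3521 CPM in Control (SD, n = 3 each). mmu-let-7g-5p had 27845, 25378 and 22899 CPM in CIH, against 22957, 30689 and 18813 CPM in Control, and so was high in Control replicate 2 and low in Control replicate 3, opposite to miR-101. mmu-miR-25-3p was the only one whose groups did not overlap, with 1621, 1615 and 1563 CPM in CIH, against 1447, 1402 and 1446 CPM in Control (log2 fold change 0.16, edgeR adjusted p = 0.79), where 12.5% of all miRNAs did not overlap. mmu-miR-30d-5p, of the tubule-abundant miR-30 family, had the lowest log2 fold change of the list, -0.20 (standard error 0.11, edgeR adjusted p = 0.78). mmu-miR-144-3p, which shares the ACAGUA stretch with miR-101, had 267, 193 and 311 CPM in CIH, against 281, 345 and 193 CPM in Control. It is an erythroid miRNA, and the 3 erythroid markers summed to 5547 to 7125 CPM in CIH and 5339 to 6537 CPM in Control, all measured and none at 0. Among them mmu-miR-486a-5p had 578, 586 and 650 CPM in CIH, against 535, 477 and 386 CPM in Control, and its groups did not overlap (log2 fold change 0.38, unadjusted p = 0.019 and adjusted p = 0.58 from edgeR). mmu-miR-451a, the most abundant of them, had 5098, 4768 and 6164 CPM in CIH, against 5721, 5453 and 4759 CPM in Control. Its log2 fold change was 0.0086 and that of mmu-miR-144-3p was -0.086, and the groups of both overlapped. The part of these cells in the values was not tested.

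**Figure D4:**
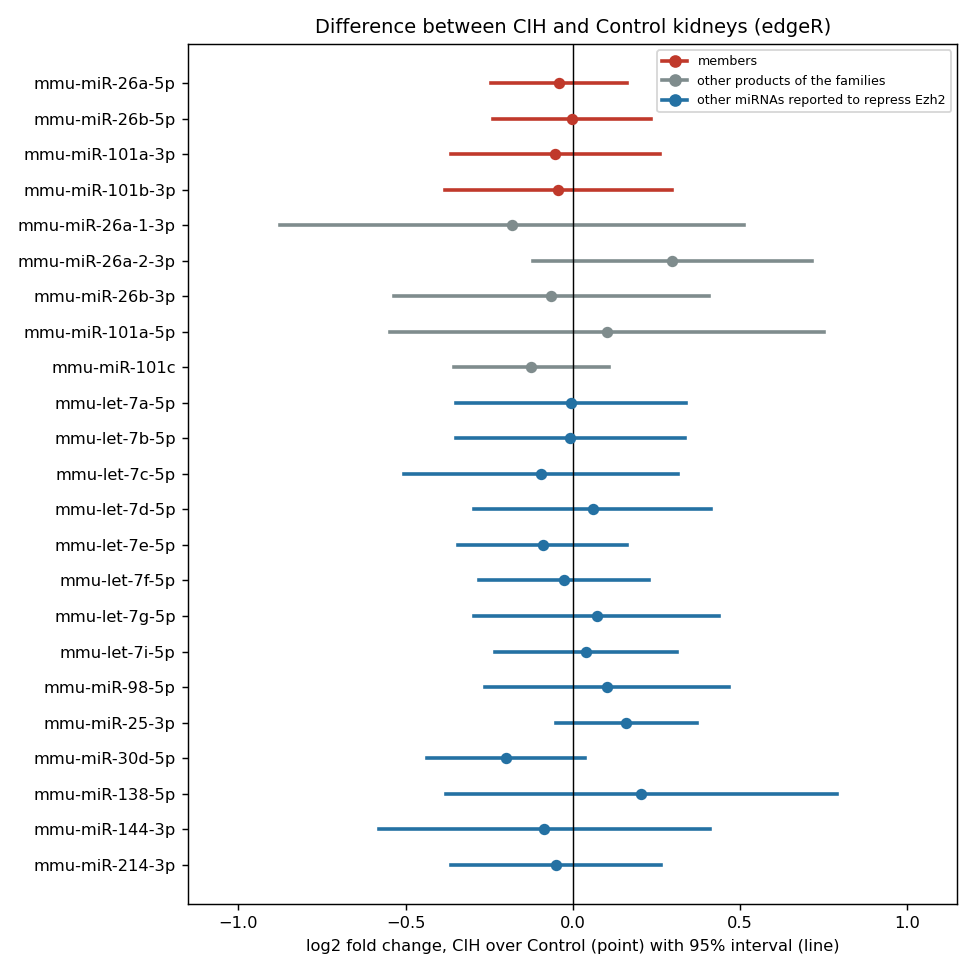
Log2 fold change of CIH over Control (points) with its 95% interval from edgeR's quasi-likelihood fit (lines). Members are red, other products of the same families grey, and other miRNAs reported to repress Ezh2 blue. Every interval crosses 0, and those of the 4 members lie between -0.38 and 0.30.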

How the data were processed

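Raw read counts were deposited by the authors for 584 entries of 495 mature miRNAs, after adapter removal with cutadapt and alignment with Bowtie according to the submitters' processing notes. No source used here gives their versions or the miRBase release. Where a name had several entries (44 names), only the one with the largest summed count was used. Library totals were then 5431797 to 7741499 counts. PCR reads without molecular identifiers are not independent molecules, so counting errors cover counting only.

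Every miRNA had counts in 3 or more libraries and was tested. CIH was compared with Control in R 4.3.3 by the quasi-likelihood test of edgeR 4.0.16, with TMM scaling, group alone in the model and Benjamini-Hochberg adjustment over all miRNAs. The 95% intervals came from the standard error and the t distribution of that fit. DESeq2 1.42.0 and limma 3.58.1 were alternatives, and the code was tested on simulated data. Seed matches used GENCODE release M21 transcripts. Named were the members, other products of their precursors, their neighbours in level and pattern, and list members. Examples from the lists, and the mark of 1000 CPM, were chosen after values were seen. The members and lists were chosen with earlier results of these data known.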

Additional observations from a re-analysis of the deposited data

How the results depend on the processing

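Under the 18 alternatives none of the 4 members passed an adjusted p of 0.05, and the lowest adjusted p was 0.45. The small fold changes did change sign. With no scaling beyond library totals the log2 fold change was 0.017 for mmu-miR-26a-5p, 0.056 for mmu-miR-26b-5p, 0.019 for mmu-miR-101a-3p and 0.028 for mmu-miR-101b-3p. mmu-miR-26b-5p was also positive with DESeq2 size factors (0.0098), upper-quartile scaling (0.0045), the DESeq2 test (0.0098), limma at any of 3 pseudocounts (0.0042) and every entry as its own feature (0.017). With a replicate block it was 0.0042. Same-numbered CIH and Control libraries did not deviate together (correlations over miRNAs of -0.04, -0.03 and 0.03). No pairing by number was thus seen, though so few libraries cannot show that there was none. With 1 library left out, the log2 fold change ran from -0.084 to -0.015 for mmu-miR-26a-5p, from -0.073 to 0.091 for mmu-miR-26b-5p, from -0.19 to 0.10 for mmu-miR-101a-3p and from -0.20 to 0.13 for mmu-miR-101b-3p. The count of all miRNAs past an unadjusted p of 0.05 was 24 at a mean of at least 10 CPM, where fewer were tested, and ran from 21, without CIH replicate 2, to 67, without Control replicate 2. Summing all entries of each of the 44 repeated names also changed library totals and scaling. It put the miR-26 pair at 68332 to 76204 CPM and the miR-101 pair at 15828 to 24834 CPM. The 2 entries of mmu-miR-26a-5p totalled 1565291 and 1565145 counts and may hold the same reads. The summed miR-26 value is thus not read as a higher level.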

Other observations

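Among the 68 miRNAs with a mean of at least 1000 CPM, 12 were lowest in Control replicate 2 and highest in Control replicate 3. For these sets the order was taken over all 6 libraries, and not within Control alone as for the markers. The 12 included mmu-miR-101a-3p and mmu-miR-101b-3p. mmu-miR-192-5p, mmu-miR-143-3p, mmu-miR-126a-3p and mmu-miR-148a-3p were among these 12. Another 18 were highest in Control replicate 2 and lowest in Control replicate 3, as mmu-miR-26b-5p was, and these included 7 of the let-7 family, mmu-miR-29a-3p and mmu-miR-30c-5p. mmu-miR-26a-5p, mmu-miR-25-3p and mmu-miR-30d-5p, also above 1000 CPM, were in neither set. Within Control alone mmu-miR-30d-5p did have the order of miR-101, with 28357, 24611 and 28428 CPM. Its CIH replicates 1 and 3 were lower still, at 22421 and 22624 CPM. The labels do not set these Control libraries apart. These counts were made after the pattern was seen, and no cause of it was tested.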
